A study of Mus musculus with 12 samples.

Results

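Irf8, Spi1, Klf4, Ly86, Irf5, Cd14, Csf1, F13a1 and Ms4a6c are genes that direct the monocyte fate or mark cells that have begun it. They were found by gene symbol in the array's annotation, where Spi1 is listed under its older symbol Sfpi1. All 9 of the 9 genes had a value, carried by 60 of the 105661 probe sets of the table and set among 14199 genes in all. Cd14 rests on 1 probe set, Spi1 on 4, Klf4 and Ly86 on 5 each, Irf5 and Csf1 on 6 each, Ms4a6c on 7, Irf8 on 11 and F13a1 on 15.

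The values come from granulocyte-monocyte precursors (GMPs), the bone marrow progenitors of granulocytes and monocytes, which were sorted from C57BL/6 mice and measured on 12 Affymetrix Mouse Gene 1.0 ST arrays. The groups, of 3 arrays each, were wild-type mice (WT), Gfi1 knock-out mice (KO), mice with human GFI1 knocked in, either in its common form (wtKI) or in a variant form (SNP). The study sought target genes of the variant that may bear on acute myeloid leukaemia. The labels give neither age nor sex and do not say whether each array stands for its own mouse, and p-values therefore reflect the spread of these samples alone, part of which may be technical. In such bulk samples, fewer cells of a type and less RNA per cell cannot be told apart.

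GFI1 is a repressor that binds DNA through its zinc fingers and pushes these precursors towards granulocytes and away from monocytes. On the monocyte side, the ETS factor PU.1 (the product of Spi1) and the interferon regulatory factor IRF8 act together on many promoters, and KLF4 acts downstream of them. CSF1 is the growth factor of the monocyte and macrophage lineage. MD-1 (the product of Ly86), CD14, the A subunit of coagulation factor XIII (F13a1) and MS4A6C are products by which monocytes and their precursors are recognised.

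Facts about the arrays bear on every value. The median correlation of an array with the rest was 0.70 for KO 1 and 0.633 for SNP 1, against 0.836 to 0.886 for the other 10, and the counts of the 9 genes and the differences that moved most are also given without them. SNP 1 also had the highest summed level of late neutrophil markers, 14.60 on the log2 scale against 10.51 to 11.69 in WT, and of erythroid markers, 12.48 against 7.94 to 9.37 in WT, and the lowest of GMP markers, 11.86 against 13.10 to 13.16. KO 1 had 10.79 for the erythroid and 12.83 for the GMP markers. The GMP markers were thus present on every array, at lower levels on SNP 1, and 7 of the 8 listed were measured. On SNP 1, Cd34 was at 8.55 (10.56 to 10.72 in WT) and Kit at 6.29 (8.60 to 8.71 in WT). Fcgr3 (8.93) lay within its WT range there, and Fcgr2b (7.70) above its own. The Y-linked gene Eif2s3y was at 1.71 to 2.39 on WT 3, wtKI 2 and wtKI 3 and at 7.74 to 8.59 on the other 9 arrays, so these 3 arrays carry RNA of female mice. Gfi1 itself was 0.66 ± 0.21 (SE) higher in KO than in WT (limma adjusted p = 0.802), so its summed signal does not check the KO label.

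The arrays compare states of a DNA-binding repressor, so the start regions of the genes were read for short motifs. RefSeq windows of 300 bases (250 before to 50 after the gene start, GRCm38.p6) were read for 7 of the 9 genes, 9 windows in all. No window of Spi1 or Cd14 was used. The motifs were the GFI1 core AATCAC, the PU.1 motif GAGGAAGT, the core of the interferon-stimulated response element GAAANNGAA and the core of the composite ETS-IRF element GGAANNGAA, searched on both strands; the second and the fourth both hold GGAA and can overlap. They were chosen with the sequences and earlier results in view. The 5 sites printed here are shown because they lie in the genes whose arrays separated between groups or in the ligand Csf1; the motif is in capitals and each line runs 5′ to 3′ along the gene.
Irf8, chr8:120736170-120736199, plus strand: ggacgtgcaaaaGTGATTtctcggaaagag
Csf1, chr3:107760571-107760600, minus strand: tagaccgagaacAATCACacgagattgaca
Ms4a6c, chr19:11469304-11469333, plus strand: tcaaatctcttaGTGATTtttctgaagtta
Ly86, chr13:37345334-37345363, plus strand: attcgagaagtGAAACTGAAcatactactc
F13a1, chr13:37049181-37049210, minus strand: cgagtccttttGAGGAAGTacccagaggca

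The GFI1 core stood 176 bases before the start of Irf8 and 52 before that of Ms4a6c, both on the opposite strand, and 119 before that of Csf1. It was found in 10.4% of the 32851 windows in the RefSeq table. The Ly86 site matched the interferon-stimulated core, found in 8.56% of windows, and began on the first transcribed base, counted here as base 1. The F13a1 site matched the PU.1 motif, found in 3.2% of windows. It began on transcribed base 15, counted from the gene start in the second F13a1 window. Ms4a6c also held an interferon-stimulated core 133 bases before its start and a composite core from transcribed base 28. The composite core was found in 8.24% of windows. In all, 5 of the 9 windows held a match to any of the motifs. The share of all windows with any of them was not counted, so this count has no background. The windows of Klf4 and Irf5, the first F13a1 window and the second Irf8 window did not hold these letters. A match is a run of letters, not a measured binding site.

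**Figure D1:**
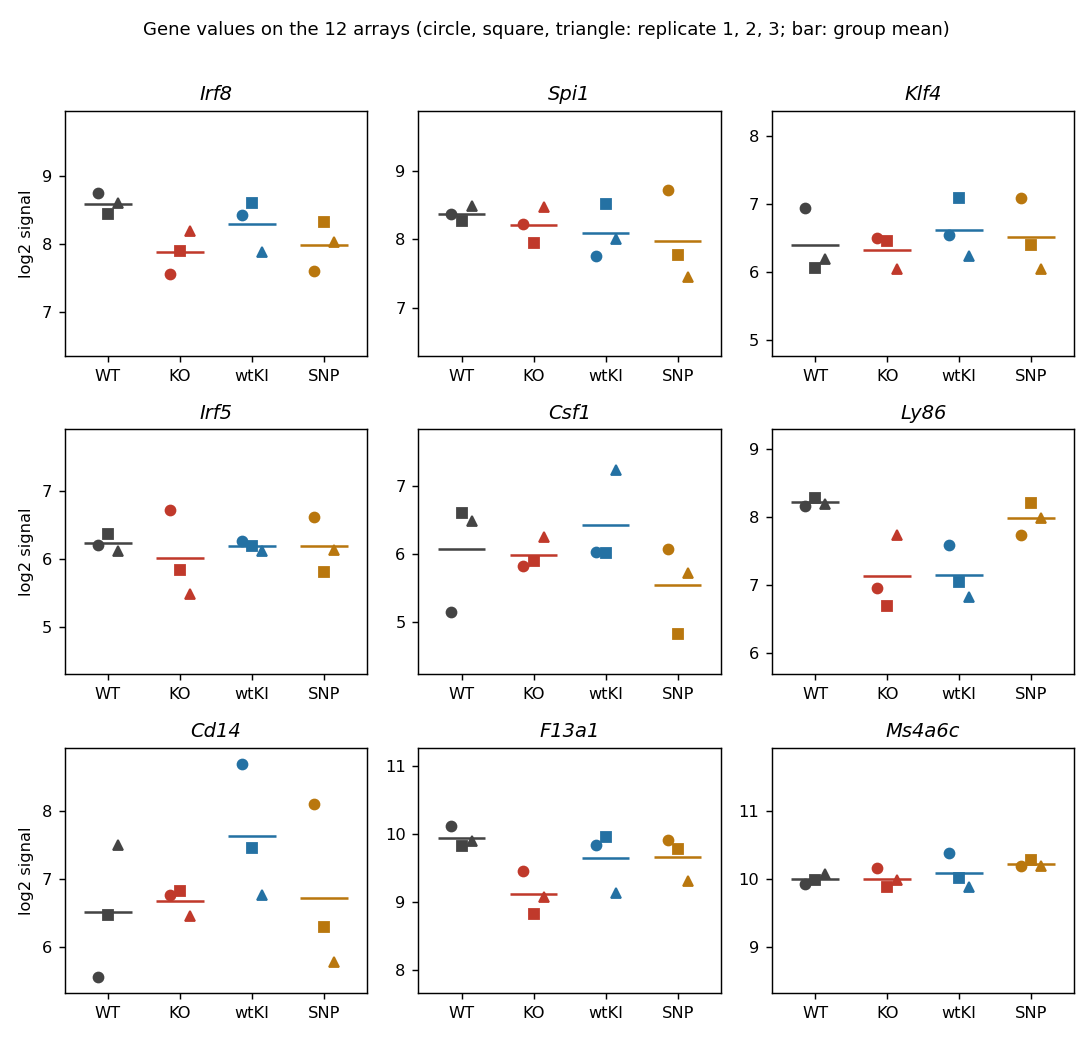
Log2 signal of the 9 genes (y axis, each panel spanning the same height of 3.6 log2 units) on the 12 arrays by group (x axis), with a point per array and a bar at the group mean. The 3 KO arrays of Ly86 (6.69 to 7.73), Irf8 (7.56 to 8.19) and F13a1 (8.81 to 9.46) all lie below the WT arrays (8.16 to 8.28, 8.43 to 8.75 and 9.81 to 10.11), while Cd14 is spread widely inside WT, wtKI and SNP.

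Loss of Gfi1 was compared with the wild type first. Ly86, F13a1 and Irf8 were lower on all 3 KO arrays than on any WT array, to 0.471, 0.564 and 0.612 of the WT level, and none of the 9 genes passed the test (limma, Benjamini-Hochberg adjusted p of 0.481 to 1 over 14199 genes). No gene of the array passed it either (0% at adjusted p under 0.05), and 4.72% of all genes, 670, had an unadjusted p under 0.05, as did 3 of the 9. Groups without overlap were found for 11.8% of all genes in either direction and for 6.09% with KO lower, against 3 of the 9 with KO lower. Of the 9 genes, 7 had a difference below 0, with a median of -0.16 on the log2 scale, while the median over all genes was -0.02 and 53.1% of them lay below 0. Without KO 1 and SNP 1, 4 of the 9 were free of overlap, against 24.9% of all genes. With each gene read from its brightest probe set, Irf8 (-0.73), Ly86 (-0.63) and F13a1 (-0.51) kept their sign, but none of the 9 was free of overlap, against 11.3% of all genes. The mast cell and basophil markers, of which 6 of 6 were measured, summed to 11.47, 11.43 and 11.68 on the KO arrays and to 10.51, 10.98 and 10.26 on the WT arrays, and their part in the result was not tested.

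Irf8, the factor that steers precursors to monocytes and dendritic cells, had log2 signals of 8.75, 8.43 and 8.60 on WT 1 to WT 3 and of 7.56, 7.90 and 8.19 on KO 1 to KO 3. The groups did not overlap, and KO 1 was the lowest of all 12 arrays. The difference was -0.71 ± 0.25 (SE, 3 arrays per group; 95% confidence interval -1.26 to -0.16), with an adjusted p of 0.888. Without KO 1 and SNP 1 it was -0.55 ± 0.23. Each of the 11 Irf8 probe sets had a lower mean in KO, by -1.25 to -0.21, and 7 of them were free of overlap.

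Ly86 encodes MD-1, a secreted protein that binds the receptor CD180 on monocytes and B cells. It was at 8.16, 8.28 and 8.19 on the WT arrays and at 6.95, 6.69 and 7.73 on KO 1 to KO 3. The WT arrays lay within 0.12 of each other, and the KO arrays were all lower and spread over 1.04. The difference was -1.08 ± 0.28 (adjusted p = 0.481), and -1.00 ± 0.31 without KO 1 and SNP 1. All 5 probe sets were lower in KO, by -1.98 to -0.63, and 4 did not overlap.

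F13a1, a transglutaminase subunit made by monocytes and platelets, was at 10.11, 9.81 and 9.90 on the WT arrays and at 9.46, 8.81 and 9.06 on the KO arrays. All 3 KO arrays were lower than every other array of F13a1 except wtKI 3 (9.13) and SNP 3 (9.30). The difference was -0.83 ± 0.26 (adjusted p = 0.802), and -1.00 ± 0.26 without KO 1 and SNP 1 (adjusted p = 0.296). All 15 probe sets were lower in KO, by -1.56 to -0.44, and 10 did not overlap. F13a1 and Ly86 are neighbours on chromosome 13, with 0 coding genes between them in the RefSeq order; the 9 genes lie on 8 chromosomes.

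**Figure D2:**
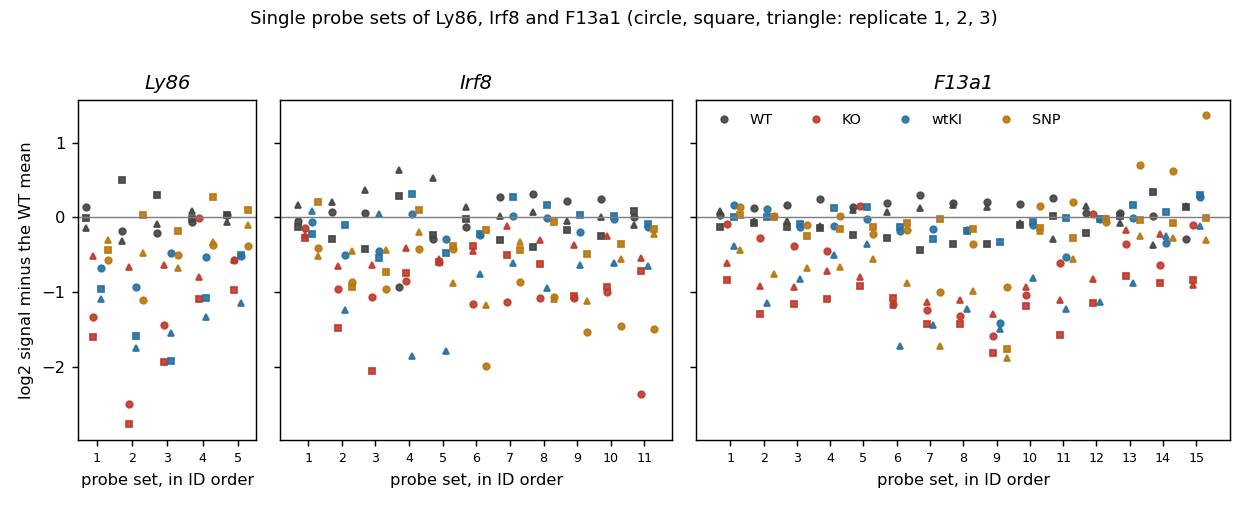
Each probe set of Ly86 (5), Irf8 (11) and F13a1 (15) along the x axis, with the log2 signal of each array minus the mean of the 3 WT arrays on the y axis; colours are groups and marker shapes are replicates. The KO points lie below 0 on average for all 5, all 11 and all 15 probe sets, and in Ly86 the wtKI points do so as well, while the SNP points of Ly86 lie closer to 0.

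The other regulators overlapped between KO and WT. Spi1 was at 8.37, 8.28 and 8.49 on the WT arrays and at 8.22, 7.95 and 8.48 on the KO arrays, a difference of -0.16 ± 0.31. Klf4, a zinc-finger factor of monocyte differentiation, was at 6.94, 6.06 and 6.19 in WT and at 6.50, 6.45 and 6.04 in KO (-0.06 ± 0.33). Irf5, which drives inflammatory genes in macrophages, was at 6.20, 6.37 and 6.12 in WT and at 6.71, 5.84 and 5.49 in KO, so that KO 1 was the highest and KO 3 the lowest of the 6. Its difference was -0.21 ± 0.30, and -0.56 ± 0.17 without KO 1 and SNP 1, where the remaining KO arrays were both below WT (adjusted p = 0.457).

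Csf1 was at 5.16, 6.60 and 6.49 in WT and at 5.83, 5.91 and 6.25 in KO, a difference of -0.09 ± 0.46. WT 1 stood below the other 5 of these arrays, and the sign of the Csf1 difference turned when either of the other WT arrays was left out. Cd14, the co-receptor that hands lipopolysaccharide to its signalling receptor, was at 5.56, 6.47 and 7.50 in WT and at 6.77, 6.82 and 6.46 in KO (0.17 ± 0.65). All KO values of Cd14 lay inside the WT range, and the interval of the difference, -1.27 to 1.61, leaves its direction unsettled. Ms4a6c, a membrane protein of the MS4A family, was at 9.94, 9.99 and 10.08 in WT and at 10.16, 9.88 and 9.99 in KO. Its difference of 0.01 ± 0.17 had an interval of -0.35 to 0.37, the narrowest of the 9.

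With limma's array weights, which weighted KO 2 far above KO 1, Irf8, Ly86 and F13a1 passed in KO minus WT (adjusted p of 0.0305, 0.00924 and 0.00835), together with 493 genes in all; with equal weights none did. The weaker signals limit what can be read. Of the probe set values over the 12 arrays, 14 of 72 for Csf1, 12 of 72 for Irf5 and 10 of 60 for Klf4 lay under the 5th percentile of their own array, against 2 of 132 for Irf8, 1 of 60 for Ly86 and 0 of 180 for F13a1.

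Next, the knock-in of the common human GFI1 was set against WT. Ly86 was lower on all 3 wtKI arrays, to 0.480 of the WT level, and none of the other 8 genes was free of overlap. None of the 9 passed the test (limma, adjusted p = 1 for each), as did no gene of the array (0% called; 3.06%, or 434 genes, at an unadjusted p under 0.05). Groups without overlap were found for 12.6% of all genes and, with wtKI lower, for 6.83%, against 1 of the 9. The median of the 9 differences was -0.04, and 5 lay below 0.

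Ly86 was at 7.59, 7.04 and 6.82 on wtKI 1 to wtKI 3, against 8.16 to 8.28 in WT. All 5 of its probe sets were lower in wtKI, by -1.42 to -0.72, and all 5 were free of overlap. The difference was -1.06 ± 0.28. Within the arrays of males it was -0.63 (wtKI 1 against WT 1 and WT 2), within those of females it was -1.26 (wtKI 2 and wtKI 3 against WT 3), and with sex as a term it was -0.95.

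Cd14 had the highest wtKI mean relative to WT of the 9 genes, with 8.70, 7.46 and 6.76 on the wtKI arrays. Only wtKI 1 lay above the WT range of 5.56 to 7.50. The difference was 1.13 ± 0.65, with 2.68 within the males and -0.39 within the females, so it did not keep its sign within sexes. Irf8 was at 8.42, 8.59 and 7.88 in wtKI, with wtKI 1 and wtKI 3 below the lowest WT array and wtKI 2 within the WT range (-0.29 ± 0.25). F13a1 was at 9.84, 9.95 and 9.13 (-0.30 ± 0.26), with wtKI 3 alone below WT. On wtKI 3, the lowest wtKI array of Irf8, F13a1 and Ly86, the mast cell and basophil markers summed to 11.69, against 10.92 and 10.78 on wtKI 1 and wtKI 2; their part in the result was not tested.

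Spi1 was at 7.75, 8.53 and 8.01 in wtKI, on both sides of the WT range, with a difference of -0.29 ± 0.31. Csf1 was at 6.03, 6.01 and 7.24, where wtKI 3 was the highest Csf1 value of all 12 arrays (0.34 ± 0.46). Klf4, at 6.55, 7.09 and 6.23, differed by 0.23 ± 0.33. Irf5, at 6.27, 6.19 and 6.11, was the least spread of the groups for that gene and differed by -0.04 ± 0.30. Ms4a6c, at 10.38, 10.03 and 9.89, differed by 0.10 ± 0.17.

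**Figure D3:**
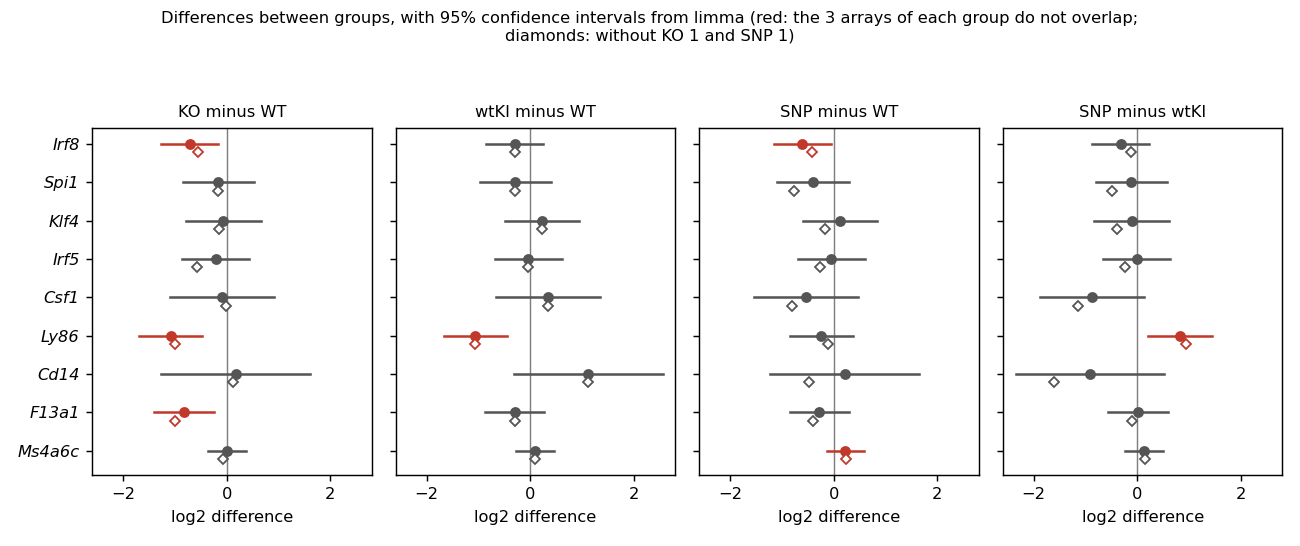
Log2 difference of each gene (x axis) in the 4 comparisons, with the 95% confidence interval from limma; red marks genes whose 3 arrays do not overlap between the groups, and open diamonds give the difference without KO 1 and SNP 1. Ly86 stands at -1.08 in KO minus WT, -1.06 in wtKI minus WT and 0.82 in SNP minus wtKI, and Irf8 at -0.71 in KO minus WT and -0.61 in SNP minus WT; no interval here is adjusted for the number of genes.

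The variant knock-in was also compared with WT. Irf8 was lower on all 3 SNP arrays and Ms4a6c higher, and no member passed the test (limma, adjusted p of 0.294 to 0.944; 0% of all genes called). At an unadjusted p under 0.05, 15.9% of all genes, 2259, were called and 1 of the 9. Groups without overlap were found for 25.8% of all genes, 12.9% with SNP lower and 12.9% with SNP higher, so 2 of the 9 is close to this background. The median of the 9 differences was -0.24 against -0.01 over all genes; centring each array on its median moved the latter to 0.12.

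Irf8 was at 7.61, 8.32 and 8.02 on SNP 1 to SNP 3, against 8.43 to 8.75 in WT. SNP 1 was the lowest of the 3. The difference was -0.61 ± 0.25 (0.655 of the WT level; adjusted p = 0.294), and -0.42 ± 0.23 without KO 1 and SNP 1 (adjusted p = 0.382). All 11 probe sets were lower in SNP, and 8 did not overlap. Ms4a6c was at 10.20, 10.29 and 10.20, just above the WT range of 9.94 to 10.08, with a difference of 0.23 ± 0.17 (1.17 times WT; adjusted p = 0.473) and 6 of its 7 probe sets higher.

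Spi1 was at 8.73, 7.77 and 7.45 on the SNP arrays: SNP 1 lay above all WT arrays and SNP 2 and SNP 3 below all of them. Its difference was -0.40 ± 0.31, and -0.77 ± 0.25 without KO 1 and SNP 1 (adjusted p = 0.224). Cd14 was at 8.10, 6.30 and 5.78, with SNP 1 above the WT range and the others inside it, so that its difference of 0.21 ± 0.65 became -0.48 ± 0.61 without those arrays. Klf4, at 7.10, 6.41 and 6.05, likewise had SNP 1 above all WT arrays and went from 0.12 ± 0.33 to -0.17 ± 0.32. SNP 1 is the array with the high late neutrophil and erythroid markers, and the part of these in the 3 genes was not tested.

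Ly86 was at 7.73, 8.20 and 7.98 in SNP, where SNP 2 lay within the WT range (-0.24 ± 0.28). F13a1, at 9.91, 9.77 and 9.30, differed by -0.28 ± 0.26. Csf1, at 6.08, 4.83 and 5.73, held the lowest Csf1 value of all arrays on SNP 2 and differed by -0.54 ± 0.46. Irf5, at 6.62, 5.81 and 6.12, differed by -0.05 ± 0.30. Without KO 1 and SNP 1, 4 of the 9 genes were free of overlap, against 35.8% of all genes.

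The 2 knock-ins differ in the variant itself, and SNP was therefore compared with wtKI. Ly86 was higher on all 3 SNP arrays than on any wtKI array, 1.77 times on the linear scale, and it was the only one of the 9 free of overlap. None of the 9 passed the test (limma, adjusted p of 0.551 to 0.994), nor did any gene of the array (0% called; 8.85%, or 1256 genes, at an unadjusted p under 0.05). Groups without overlap were found for 14.6% of all genes, and for 7.23% with SNP higher, against 1 of the 9. The median of the 9 differences was -0.11, and 6 lay below 0.

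For Ly86 the lowest SNP array (7.73) lay above the highest wtKI array (7.59), a gap smaller than the spread within either group. The difference was 0.82 ± 0.28 (95% confidence interval 0.21 to 1.44), and 0.95 ± 0.31 without KO 1 and SNP 1. All 5 probe sets were higher in SNP, by 0.48 to 0.90, and 3 did not overlap. All SNP arrays are male, and against the single male wtKI array the difference was 0.38; with sex as a term it was 0.60. Of the other genes, Csf1 differed by -0.88 ± 0.46 and Cd14 by -0.91 ± 0.65, and both overlapped; without KO 1 and SNP 1 Cd14 was at -1.60.

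The remaining differences between SNP and wtKI were -0.32 ± 0.25 for Irf8, -0.11 ± 0.31 for Spi1, -0.11 ± 0.33 for Klf4, -0.01 ± 0.30 for Irf5, 0.02 ± 0.26 for F13a1 and 0.13 ± 0.17 for Ms4a6c. All 6 had intervals that include 0. Without KO 1 and SNP 1, 3 of the 9 genes were free of overlap, against 22.8% of all genes.

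Across the 4 genotypes at once, the limma F test called no gene (0% at adjusted p under 0.05; 9.09%, or 1290 genes, at an unadjusted p under 0.05). Ly86 had the smallest p of the 9, 0.00393 (adjusted p = 0.434), followed by F13a1 at 0.0527 and Irf8 at 0.0609; the other 6 lay between 0.336 and 0.888. The group means of Ly86 were ordered WT (8.21 ± 0.06, SD), SNP (7.97 ± 0.24), wtKI (7.15 ± 0.40) and KO (7.12 ± 0.54), with SNP and wtKI the only neighbours whose arrays did not overlap. Irf8 was ordered WT (8.59 ± 0.16), wtKI (8.30 ± 0.37), SNP (7.98 ± 0.36) and KO (7.88 ± 0.31), and F13a1 WT (9.94 ± 0.15), SNP (9.66 ± 0.32), wtKI (9.64 ± 0.45) and KO (9.11 ± 0.32), and each pair of neighbours overlapped. In the other 6 genes all neighbours overlapped as well.

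Whether Ly86 responded differently to the variant and to the loss of Gfi1 was tested as the difference of the 2 differences, a test added after the values were seen. SNP minus wtKI exceeded KO minus WT by 1.91 ± 0.39 on the log2 scale, with an unadjusted p of 0.000499 and an adjusted p of 0.356 in limma, where 0% of all genes passed and 4.51% had an unadjusted p under 0.05. For F13a1 this was 0.85 ± 0.37 (adjusted p = 0.991).

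Genes that work with the 9 were followed in lists for KO minus WT and SNP minus wtKI; no gene of any list passed adjusted p under 0.05 in either. Of 21 regulators of monocytes and dendritic cells, 16 were measured, of which 7 were lower and 9 higher in KO (median 0.09). The largest differences were 0.98 ± 0.55 for Egr1, an immediate-early factor of monocyte differentiation whose KO arrays all lay above WT, and 0.70 ± 0.83 for Bcl6, a repressor of lymphoid and myeloid genes, which was at 0.33 without KO 1 and SNP 1. Egr1 was also above WT in wtKI (0.97 ± 0.55) and SNP (0.70 ± 0.55), with overlap in both. Between SNP and wtKI, 8 of the 16 regulators were lower and 8 higher, led by Klf2 (1.05 ± 0.47) and Bcl6 (0.73 ± 0.83). Without KO 1 and SNP 1, 12 of the 16 were lower (median -0.16), with Klf2 at 0.44 and Bcl6 at -0.51. On all arrays Egr2 was higher in SNP than in wtKI without overlap (0.61 ± 0.22), and Myb lower (-0.60 ± 0.31). Groups without overlap made up 14.6% of all genes. These differences were 0.62 and -0.15 without KO 1 and SNP 1. Against WT, Egr2 was higher without overlap in SNP (1.18 ± 0.22, limma adjusted p = 0.179) and wtKI (0.57 ± 0.22). Both genes were named after their values were seen. Zeb2, a repressor needed for monocytes and dendritic cells and named here after its values were seen, was at 8.35, 8.35 and 8.44 in WT and at 7.49, 8.06 and 8.13 in KO (-0.49 ± 0.18, adjusted p = 0.953). It was at -0.29 without KO 1 and SNP 1 and at -0.078 with its brightest probe set.

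Of the relatives of Irf8 and Irf5, 6 of 7 were measured, 3 lower and 3 higher in KO, and 5 lower without KO 1 and SNP 1. Irf2, which competes with activating family members for the same motif, was at 7.73, 8.01 and 7.65 in WT and at 5.41, 6.63 and 7.54 in KO. All KO arrays were lower, and the difference was -1.27 ± 0.53 (adjusted p = 1; -0.71 without KO 1 and SNP 1). With the brightest probe set of Irf2 it was -0.045. Irf7, the factor of the type I interferon response, differed by 0.56 ± 0.70 (-0.017 without KO 1 and SNP 1). In SNP minus wtKI, 1 was lower and 5 were higher, and 5 were lower without KO 1 and SNP 1; Irf7 (0.51 ± 0.70) and Irf2 (0.47 ± 0.53) led the list and turned sign there.

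Of 14 other monocyte markers, 12 were measured, and 10 were higher and 2 lower in KO, with a median of 0.49; without KO 1 and SNP 1 the median was 0.01 and 6 were lower. Fcgr1, the high-affinity receptor for immunoglobulin G, was at 5.35, 5.09 and 5.52 in WT and at 7.94, 6.84 and 5.64 in KO (1.48 ± 0.71, adjusted p = 1). KO 1 was the highest of these and KO 3 stood close to WT. WT 1, WT 2 and KO 3 lay under the 5th percentile of their own array, so the size of the difference is not well measured; it was 0.92 without KO 1 and SNP 1. S100a4, a calcium-binding protein of motile cells, was at 9.31 on KO 1 and at 6.50 to 7.04 on the other KO and the WT arrays (1.00 ± 0.68; 0.19 without KO 1 and SNP 1). Ctss, a lysosomal protease named after its values were seen, was at 8.20, 8.63 and 8.55 in WT and at 9.87, 9.25 and 9.25 in KO (0.99 ± 0.32, adjusted p = 0.802). Ctss was also above WT without overlap in SNP (1.00 ± 0.32) and in wtKI (0.52 ± 0.32). In SNP minus wtKI, S100a4 (1.17 ± 0.68) and the integrin Itgam (1.10 ± 0.91) were led by SNP 1, at 9.41 and 10.40, and without KO 1 and SNP 1 they were at 0.45 and -0.19.

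Of 11 relatives of Ms4a6c, 9 were measured, with 3 lower and 6 higher in KO. Ms4a2, the beta chain of the immunoglobulin E receptor of mast cells and basophils, was higher on all KO arrays (1.31 ± 0.45, adjusted p = 0.826), and Ms4a6d differed by 1.11 ± 0.56 (0.59 without KO 1 and SNP 1). Ms4a2 is itself one of the mast cell and basophil markers whose summed levels are given above. It was also higher in wtKI than in WT without overlap (0.91 ± 0.45). Between the knock-ins, Ms4a4d was at 7.67, 7.02 and 7.36 on the SNP arrays and at 6.65, 4.85 and 4.17 on the wtKI arrays, 2.13 ± 0.63 higher (adjusted p = 0.551; 0.97 with its brightest probe set). On wtKI 2 and wtKI 3 it lay under the 5th percentile of the array, so the size of that difference is not well measured. Ms4a2 differed by -1.00 ± 0.45 between the knock-ins, and by -0.45 without KO 1 and SNP 1.

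**Figure D4:**
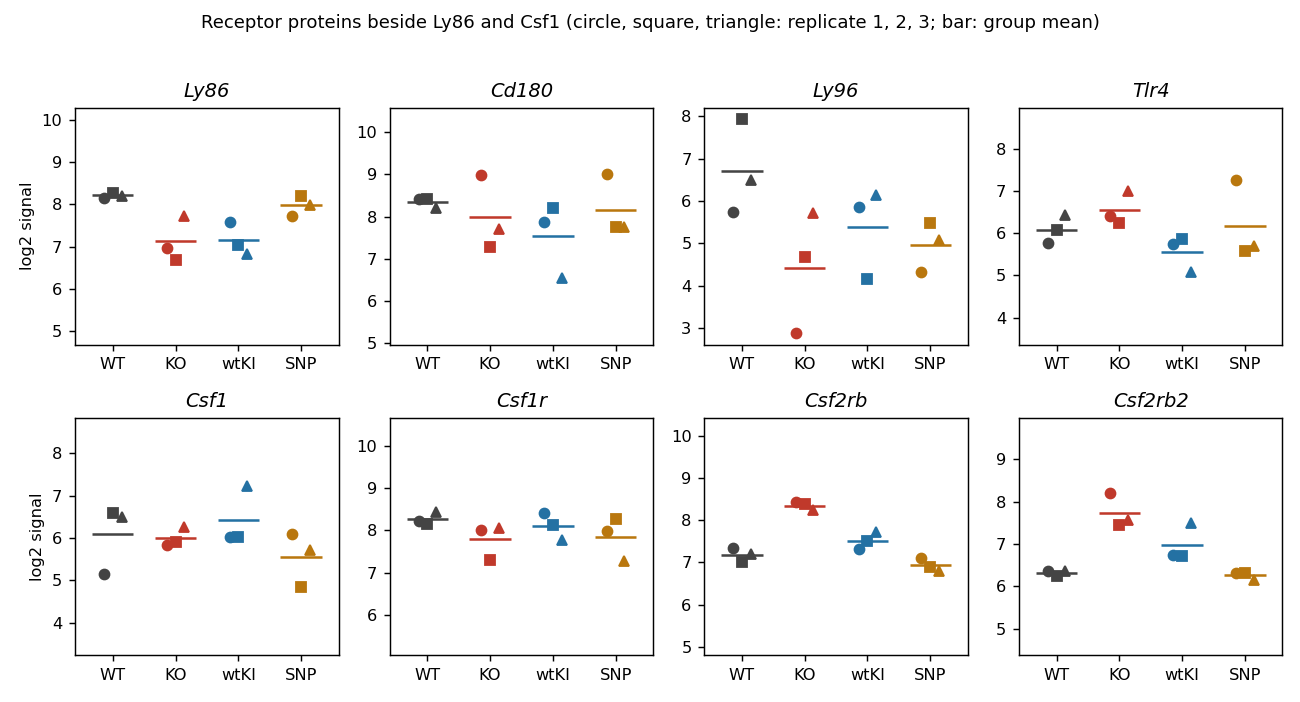
Log2 signal of receptor proteins beside Ly86 (top row) and of Csf1 and growth factor receptors (bottom row) on each array, each panel spanning 5.6 log2 units, with a bar at the group mean. Csf2rb and Csf2rb2 lie higher in KO (8.23 to 8.42 and 7.45 to 8.20) than in WT (7.02 to 7.34 and 6.24 to 6.37), while Csf1r and Ly96 lie lower in KO than in WT.

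Around Ly86 and Cd14, a list of lipopolysaccharide recognition that also holds other Toll-like receptors was followed. Of its 14 genes, 12 were measured, with 9 lower and 3 higher in KO and 6 lower without KO 1 and SNP 1. Ly96, which encodes MD-2, the relative of MD-1 that binds the receptor TLR4, was at 5.73, 7.94 and 6.49 in WT and at 2.87, 4.68 and 5.71 in KO. The highest KO array nearly met the lowest WT array, and the difference was -2.30 ± 0.77 (adjusted p = 0.802). KO 1 and KO 2 lay under the 5th percentile of their own array, so its size is not well measured; it was -1.52 without KO 1 and SNP 1. Ly96 was also below WT in SNP (-1.76 ± 0.77, without overlap) and in wtKI (-1.34 ± 0.77, with overlap). SNP 1, SNP 3 and wtKI 2 lay under that percentile too. Cd180, the receptor that MD-1 binds, was at 8.43, 8.43 and 8.19 in WT and at 8.99, 7.29 and 7.72 in KO, named after its values were seen. KO 1 was above and the other KO arrays below WT (-0.35 ± 0.52; -0.85 without KO 1 and SNP 1). Tlr9, the receptor of unmethylated DNA, was 0.98 ± 0.36 higher in KO than in WT and 1.23 ± 0.36 lower in SNP than in wtKI (adjusted p = 0.919 and 0.551), without overlap in either. The adaptor Tirap differed by 1.07 ± 0.60 in SNP minus wtKI, by 0.32 without KO 1 and SNP 1 and by -0.33 with its brightest probe set.

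Of 8 genes beside Csf1, 5 were measured, 3 lower and 2 higher in KO. Csf2rb and Csf2rb2 had the smallest p of all lists. Csf2rb, the beta chain shared by the receptors for GM-CSF, IL-3 and IL-5, was at 7.34, 7.02 and 7.20 in WT and at 8.42, 8.37 and 8.23 in KO, a difference of 1.15 ± 0.17 (2.23 times WT; adjusted p = 0.0941). Its near-identical mouse copy Csf2rb2, the beta chain of the IL-3 receptor alone, whose probes may share signal with it, differed by 1.41 ± 0.25 (adjusted p = 0.16). Csf2rb2 was also higher in wtKI than in WT without overlap (0.66 ± 0.25), while Csf2rb (0.33 ± 0.17) overlapped there. Both were lower in SNP than in wtKI without overlap, by -0.58 ± 0.17 and -0.72 ± 0.25 (adjusted p = 0.551 each), and by -0.29 and -0.14 with their brightest probe sets. Csf1r, the receptor of CSF1, was named after its values were seen: it was at 8.22, 8.15 and 8.43 in WT and at 8.01, 7.29 and 8.06 in KO (-0.48 ± 0.29, adjusted p = 1).

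For the granulocyte fate, 7 of 8 genes were measured, with 4 lower and 3 higher in KO; without KO 1 and SNP 1, 1 was lower (median 0.22). Gfi1 and its relative Gfi1b (0.43 ± 0.18) had the largest differences in KO, and the proteases of primary granules Ctsg (-0.61 ± 0.39) and Prtn3 (-0.57 ± 0.38) in SNP minus wtKI. Without KO 1 and SNP 1 the last 2 were at -0.01 and -0.11. Gfi1b was also above WT without overlap in SNP (0.35 ± 0.18) and wtKI (0.28 ± 0.18).

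The genes most like each of the 9 over the 12 arrays are given as a description; the points share arrays, and the choice among 14199 genes favours high values. Irf8 was most like Stambp and Mtdh (Pearson r of 0.925 for both; Spearman rho of 0.923 and 0.916), with r of 0.858 and 0.907 over the 10 arrays without KO 1 and SNP 1. Ly86 was most like Nrf1 (r = 0.892, rho = 0.930) and Dgke (r = 0.870, rho = 0.713), with r of 0.896 and 0.865 over the 10 arrays. F13a1 was most like Stxbp6 (r = 0.859, rho = 0.755) and Ifi209 (r = 0.850, rho = 0.643), with r of 0.911 and 0.879. For the other 6 genes the closest were Ethe1 for Spi1 (r = 0.922), Tnni2 for Klf4 (0.886), A530016L24Rik for Irf5 (0.904), Ccl27a for Csf1 (0.856), Aen for Cd14 (0.876) and Faap100 for Ms4a6c (0.909). The second in line were H4c4 for Spi1 (0.921), Jaml for Klf4 (0.843), Jakmip1 for Irf5 (0.886), Ppp6r2 for Csf1 (0.831), Klrb1c for Cd14 (0.760) and the Y-linked Uba1y for Ms4a6c (0.878). None of the 9 was among the 2 genes most like another of them.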

How the data were processed

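The deposited values are log2 signals of exon-level probe sets, which the authors made with RMA, as the submitters' processing notes name it; the RMA version is not given in the sources used here. The annotation pairs 98975 of the 105661 probe sets with 1 symbol, and these gave 14199 genes, 14146 of them found in RefSeq (GRCm38.p6), which updated 1756 symbols. Every probe set reaches 6.14 or more on some array, so the table is a selection and genes low in all samples are missing. The probe sets of a gene were joined to 1 value per array by median polish. RMA is meant to equalise array intensities, and median polish damps single probe sets. In this table the arrays still differed: the 5th percentile was 4.39 on SNP 1, 4.40 on KO 1 and 5.65 on KO 3. A value under the 5th percentile of its own array is therefore not the same level on each array.

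All 12 arrays were fitted with limma 3.58.1 in R 4.3.3 (lmFit, eBayes), with Benjamini-Hochberg adjustment over all genes and a threshold of 0.05; errors are standard errors of this fit unless called SD. For arrays, their number limits the precision. "No overlap" means that all arrays of a group lie on one side of all arrays of the other. The fit was tested on simulated data. The 9 genes, the lists, the motifs and the tests were chosen with earlier results of these data known. Named are the 9 genes, Gfi1, the 2 genes of each list with the largest difference in KO minus WT and in SNP minus wtKI, and the 2 genes most correlated with each of the 9; the exceptions are marked. Alternatives changed the gene summary, scaling, dim-gene filter, arrays, weights, sex term and replicate block. KO minus WT, wtKI minus WT and SNP minus WT share the WT arrays.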

Additional observations from a re-analysis of the deposited data

How the results depend on the processing

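Of the 37 comparisons of the 9 genes, 20 kept their sign in every one of up to 22 settings, among them Irf8, Ly86 and F13a1 in KO minus WT; 25 of 32 comparisons of the other named genes did so. Several of these settings cannot move a plain difference of group means, so a kept sign there was fixed in advance. They are the replicate block, the dim-gene filter, the fit of only the groups compared and an array left out of another group. Klf4, Irf5 and Csf1 are not in the fit without the dimmest 30% of genes. The Ly86 test of the difference of differences, Csf1r, Zeb2, Ctss, Cd180, Egr2, Myb and the counts without overlap were added after seeing the data. Egr2 and Myb were not among the 32 comparisons. Limits: each group has 3 arrays, KO 1 and SNP 1 stand apart, all KO and SNP arrays are male, and weak signals lie near the background of the arrays. Except where said, the cause of a change was not tested.

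In KO minus WT, the genes past adjusted p 0.05 in limma went from 0 to 3 with the mean of the probe sets, 1 with repeated quantile normalization, 1 with only the groups compared, 4 with the 10 arrays and 493 with array weights, and to 0 to 5 when an array was left out. The 5 came without SNP 1. Array weights also called 3 of the 9 genes: Irf8 (-0.69, adjusted p = 0.0305), Ly86 (-1.39, 0.00924) and F13a1 (-1.09, 0.00835). They gave KO 2 a weight of 6.83 and KO 1 one of 0.219, so the KO mean there is mostly KO 2. With the probe set of the highest mean, 0 of the 9 were free of overlap (11.3% of all genes), and with an array left out 3 to 4 (11.8% to 26.8%). In wtKI minus WT, array weights called 4 genes and single arrays left out 0 to 1; 2 of the 9 were free of overlap with the highest probe set (11.3% of all genes) and 1 to 3 with an array left out (12.6% to 30%), 3 without wtKI 2 (30%) and 2 without WT 1, WT 2 or WT 3 (21.6%, 23% and 21.8%). In SNP minus WT, 1 gene was called without dim genes, 4 with array weights and 0 to 2 with an array left out; 4 of the 9 were free of overlap with the 10 arrays (35.8% of all genes) and 2 to 4 with an array left out (25.8% to 42.6%), 4 without SNP 1 (35.8%) and 3 without SNP 2 (42.6%). SNP minus wtKI had 1 gene called with only the groups compared and 0 to 2 with an array left out; 3 of the 9 were free of overlap with the 10 arrays (22.8% of all genes) and 1 to 3 with an array left out (14.6% to 33.5%), 3 without SNP 1 (22.8%) and 2 without wtKI 1 or wtKI 3 (24.5% and 27.6%). The F test called 775 genes and 2 of the 9 with array weights, and 0 to 2 genes with an array left out.

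Signs turned as follows. With the probe set of the highest mean: in KO minus WT Spi1 (0.068) and Cd180 (0.21), in SNP minus WT Irf5 (0.48), and in SNP minus wtKI Irf5 (0.70), F13a1 (-0.021) and Tirap (-0.33). With array weights: in KO minus WT Klf4 (0.0036) and Ms4a6c (-0.11), in wtKI minus WT Irf5 (0.022), in SNP minus WT Klf4 (-0.15) and Cd14 (-0.50), and in SNP minus wtKI F13a1 (-0.22), Bcl6 (-0.28), Irf7 (-0.21) and Itgam (-0.019). With repeated quantile normalization: in KO minus WT Csf1 (0.036), in SNP minus WT Irf5 (0.096), and in SNP minus wtKI Klf4 (0.13) and Irf5 (0.13). With the sex term: in KO minus WT Csf1 (0.11) and Ms4a6c (-0.041), in wtKI minus WT Irf5 (0.0093), and in SNP minus wtKI Spi1 (0.11) and F13a1 (-0.10). With the mean of the probe sets: in KO minus WT Ms4a6c (-0.029), in SNP minus WT Irf5 (0.017), and in SNP minus wtKI Irf5 (0.25). With the 10 arrays: in KO minus WT Ms4a6c (-0.067) and Irf7 (-0.017), in SNP minus WT Klf4 (-0.17) and Cd14 (-0.48), and in SNP minus wtKI F13a1 (-0.10), Bcl6 (-0.51), Irf2 (-0.11), Irf7 (-0.44) and Itgam (-0.19). With median centring: in SNP minus WT Irf5 (0.078) and in SNP minus wtKI Irf5 (0.10).

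When each array was left out in turn, these differences crossed 0. In KO minus WT Klf4 ran from -0.23 to 0.21, Irf5 from -0.56 to 0.049, Csf1 from -0.55 to 0.17, Cd14 from -0.30 to 0.67, Ms4a6c from -0.067 to 0.075, Irf7 from -0.017 to 1.04 and Cd180 from -0.85 to 0.0046. In wtKI minus WT Klf4 ran from -0.0020 to 0.50, Irf5 from -0.092 to 0.032, Csf1 from -0.12 to 0.60 and Ms4a6c from -0.042 to 0.20. In SNP minus WT Klf4 ran from -0.17 to 0.40, Irf5 from -0.26 to 0.14 and Cd14 from -0.48 to 0.71. In SNP minus wtKI Spi1 ran from -0.49 to 0.15, Klf4 from -0.40 to 0.13, Irf5 from -0.23 to 0.18, F13a1 from -0.24 to 0.20, Bcl6 from -0.51 to 1.35, Irf2 from -0.11 to 0.82, Irf7 from -0.44 to 1.02 and Itgam from -0.19 to 1.82.

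With the replicate block, 0 genes passed in each comparison and the F test. The differences kept their values (Ly86 in KO minus WT, -1.08), as they must, because every group holds the same replicate numbers. Arrays of one number share only a number: the correlations of their deviations ran from -0.05 to 0.11, and not every array correlated best with its own number.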
